A study of Gallus gallus with 16 samples.

Results

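Immediate early genes are switched on within minutes of a stimulus from promoters that are already prepared for transcription. FOS and FOSL2 proteins pair with JUN and JUND proteins to form the transcription factor AP-1. ATF3 is a stress-induced factor that also pairs with JUN proteins, EGR1 is a zinc finger transcription factor, DUSP1 and DUSP4 are phosphatases that turn off MAP kinases, and BTG2 restrains cell proliferation. Many of these genes are short, and signalling by growth factors and by stress reaches them through MAP kinases and serum response factor. H3K4me3 is a methyl mark of active or prepared promoters, and H3K27ac is an acetyl mark found at promoters in use and at active enhancers.

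The peaks described here are those that the deposited table annotates to 10 genes chosen by name: FOS, FOSL2, JUN, JUND, ATF3, EGR1, IER2, DUSP1, DUSP4 and BTG2. IER2 was matched by no line and was not analysed here, so 9 of the 10 genes are described, with 65 of the 108520 peaks. The peaks come from lens fiber cells of embryonic day 13 White Leghorn chick lenses, cultured whole for 2 h. Normoxia was 21% oxygen and hypoxia 1% oxygen, no genetic change is named, and 10 to 15 lenses went into each replicate. The culture medium of all lenses held 10% fetal bovine serum. The extraction text gives dissection times of 0 h and 2 h under hypoxia, which leaves the culture time of the normoxia lenses uncertain. CUT&RUN, which cuts out the DNA around an antibody bound to chromatin, was used for both marks, with 2 H3K27ac and 3 H3K4me3 libraries per condition. The nonspecific antibody control IgG, with 3 libraries per condition, was not analysed here.

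The table holds 1 list of peaks per mark and condition, with no score and no value per library. None of the differences between conditions below therefore has a replicate check or a test, and sequencing depth is unknown. Over the genome the H3K27ac lists hold 15511 peaks in normoxia and 45734 in hypoxia, and the H3K4me3 lists 22288 and 24987, so a peak of H3K27ac found only in hypoxia is common in these data. Of 13 lens fiber marker genes, 10 had an H3K27ac peak within 3000 bp of a transcription start site (TSS) in normoxia and 12 in hypoxia. Among 7 blood and endothelial markers, none had such an H3K27ac peak in either condition. KDR had an H3K4me3 promoter peak in both conditions, PTPRC, CDH5, PECAM1 and TAL1 had no promoter peak of either mark, and the globin genes HBBA and HBA1 were matched by no line. Epithelial markers had an H3K27ac promoter peak at 2 of 7 genes in normoxia and 5 of 7 in hypoxia. Retinal markers had one of H3K27ac at 1 and 2 of 6, mesenchymal markers at 0 and 2 of 5 and pigment epithelial markers at 0 and 1 of 5. The part of other cells in the results below was not tested. Coordinates refer to galGal6, and positions along a gene count from its TSS, negative upstream. The start sites worked out from the distances in the table are FOS at 38430793 on chromosome 5, EGR1 at 18949948 on chromosome 13, DUSP4 at 49367971 on chromosome 4, BTG2 at 5122814 on chromosome 26 and JUND at 4077792 on chromosome 28, all on the plus strand. Those on the minus strand are JUN at 26715827 on chromosome 8, DUSP1 at 9772644 on chromosome 13, and FOSL2 and ATF3 at 27510879 and 21951025 on chromosome 3.

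The 9 genes carried 7 H3K27ac peaks in normoxia and 20 in hypoxia, and 17 and 21 H3K4me3 peaks. Their H3K27ac peaks ranged from 175 to 1561 bp in normoxia and from 165 to 1900 bp in hypoxia, with medians of 685 and 552.5 bp. The medians over all peaks of those lists were 535 and 564 bp. H3K4me3 peaks of the same genes spanned 239 to 6481 bp in normoxia and 173 to 7572 bp in hypoxia, and their medians of 2248 and 3026 bp compare with 1035 and 930 bp over all peaks.

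**Figure D1:**
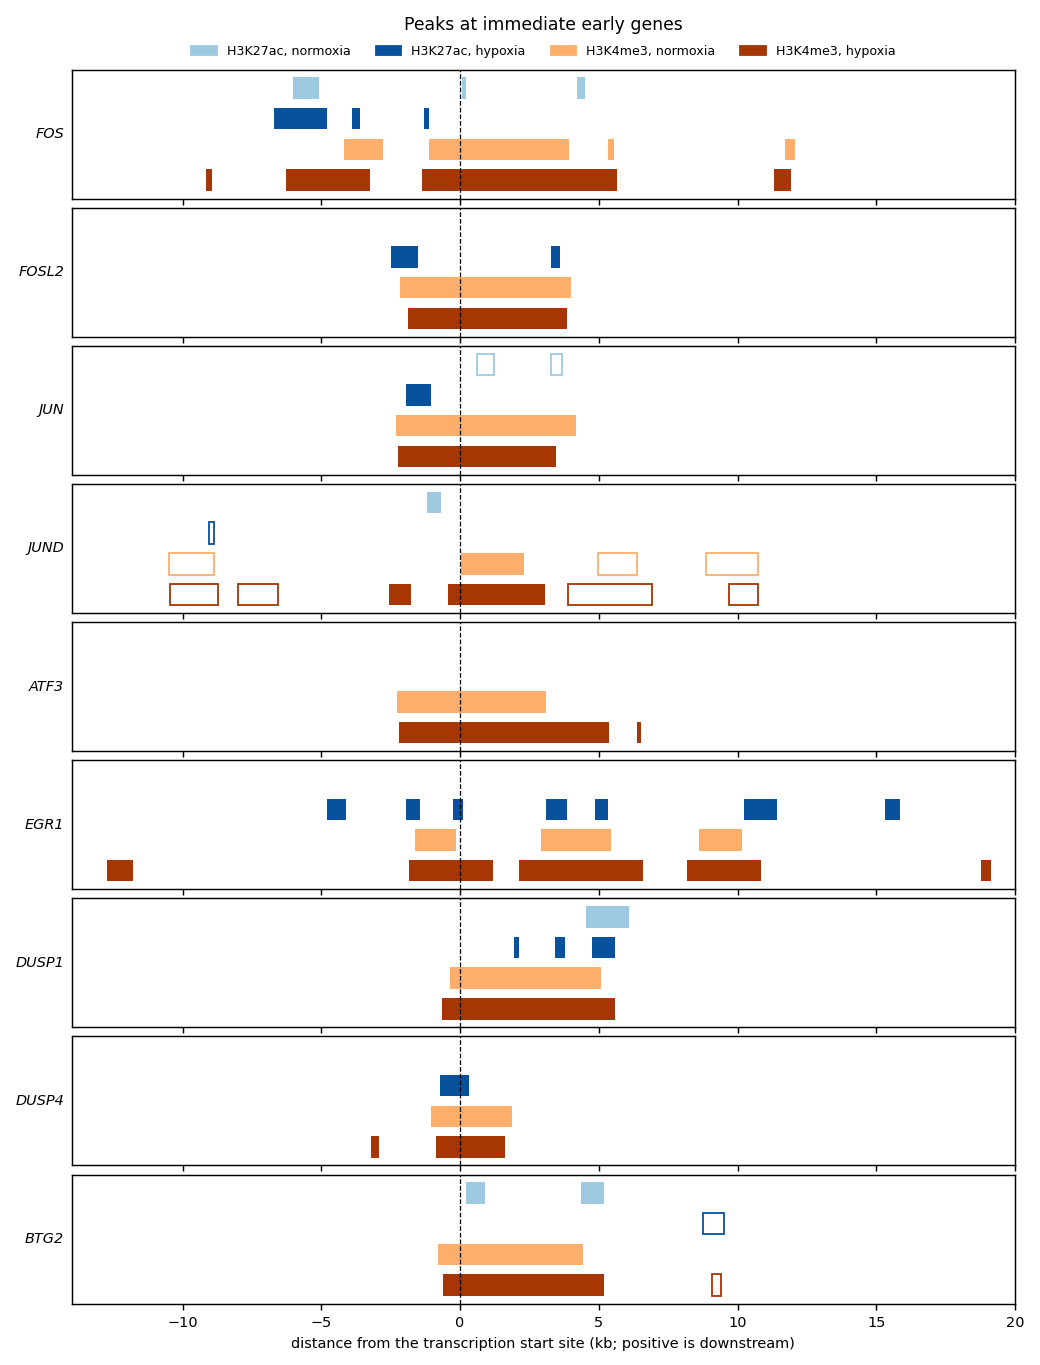
Peaks at each gene by distance from its TSS in kb, with 1 row per list: H3K27ac in normoxia and hypoxia, then H3K4me3 in normoxia and hypoxia. Filled bars are peaks annotated to the gene, open bars are peaks within 10 kb that the table gives to another gene, and 8 peaks farther out are not drawn. H3K4me3 lies over or beside every TSS in both conditions, while H3K27ac bars are mostly narrower and mostly differ in position between conditions.

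H3K4me3 was present at the promoter of all 9 genes in both conditions. A promoter peak is one within 3000 bp of a TSS. Of the 10846 genes with an H3K4me3 promoter peak, 91.4% had it in both lists, 5.15% in hypoxia only and 3.49% in normoxia only, so the state of the 9 genes was the usual one. By position, with peaks of any annotation counted, these shares were 92.8%, 4.35% and 2.82%, and all 9 genes were again in both lists. A peak covered the TSS at 7 of 9 genes in normoxia, where the background was 81.3%, and at 9 of 9 in hypoxia, where it was 84.7%. The peak at the TSS was broad at most of the genes. At 6 of 9 genes it reached 5000 bp or more in both conditions, namely FOS, FOSL2, JUN, ATF3, DUSP1 and BTG2. Among all genes with an H3K4me3 promoter peak, 11.7% had one that wide in normoxia and 14.1% in hypoxia. For the 9 genes the median width was 5231 bp (normoxia) and 5720 bp (hypoxia), compared with 2227.5 and 2401 bp for the widest H3K4me3 promoter peak of the 9754 genes that had one in both lists.

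At FOS the H3K4me3 peak over the TSS spanned 5058 bp in normoxia, from -1122 to 3935 bp, and 7011 bp in hypoxia, from -1358 to 5652 bp. At ATF3 it was 5340 bp wide in normoxia against 7572 bp in hypoxia. The upstream edge of ATF3 lay 68 bp closer to the TSS in hypoxia and the downstream edge lay 2300 bp farther into the gene in hypoxia. The same asymmetry held at FOS, where the downstream edge lay 1717 bp farther downstream in hypoxia and the upstream edge differed by less. The normoxia list held a separate FOS peak of 239 bp, from 5319 to 5557 bp, annotated as distal intergenic. It lay inside the span of the hypoxia peak, so that single peak covers ground where normoxia had separate peaks.

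The widest H3K4me3 peak among the AP-1 genes in normoxia was that of JUN, 6481 bp (chromosome 8, 26711662 to 26718142), and it measured 5685 bp in hypoxia. FOSL2 was likewise slightly narrower in hypoxia, 6162 bp in normoxia against 5720 bp in hypoxia. In both conditions the JUN peak was also annotated to another gene. JUND, a partner in AP-1 whose gene lies on the small chromosome 28, had a peak of 2248 bp that began 42 bp downstream of the TSS in normoxia. In hypoxia its peak measured 3500 bp and covered the TSS, and a separate peak of 784 bp ended at -1782 bp.

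Both phosphatase genes had an H3K4me3 peak over the TSS in each condition. That of DUSP1 was 5416 bp wide in normoxia against 6230 bp in hypoxia. That of DUSP4 was 2897 bp wide in normoxia against 2486 bp in hypoxia. BTG2 measured 5231 bp in normoxia against 5797 bp in hypoxia.

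EGR1 had a different layout, with separate H3K4me3 peaks before and after the start of the gene. In normoxia 3 peaks lay from -1619 to -130 bp, from 2927 to 5441 bp and from 8613 to 10167 bp, so none covered the TSS. The hypoxia list held a wider counterpart of each, from -1856 to 1197 bp, from 2137 to 6593 bp and from 8191 to 10842 bp. It also held peaks of 952 and 386 bp at -11790 and 18762 bp. The H3K4me3 peaks of EGR1 summed to 5.56 kb in normoxia, against 11.5 kb in hypoxia.

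**Figure D2:**
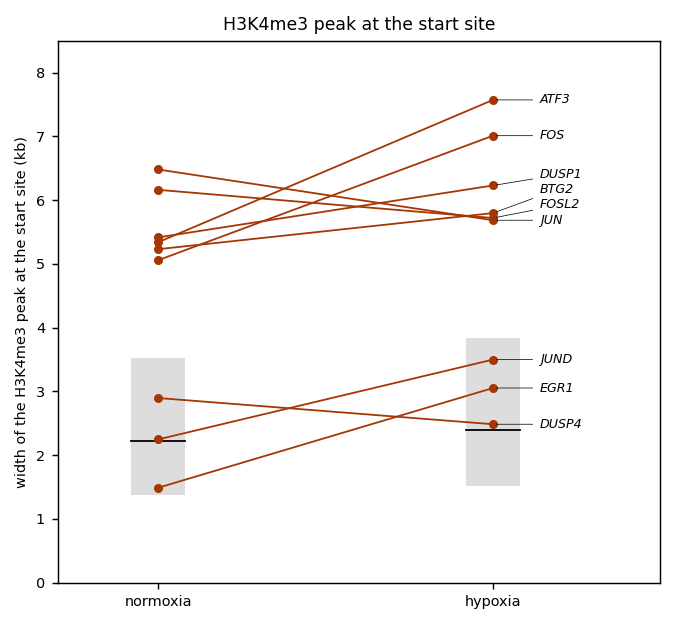
Width in kb of the H3K4me3 peak at or nearest to the TSS of each gene in normoxia and hypoxia, joined by a line. Grey bars give the middle 50% and the black line the median of the widest promoter peak over 9754 genes. For EGR1 the points show the TSS peak, which is not its widest. FOS, FOSL2, JUN, ATF3, DUSP1 and BTG2 lie above 5000 bp in both conditions, and 6 of 9 lines go up.

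The TSS peak of H3K4me3 was wider in hypoxia at 6 of 9 genes and narrower at 3, FOSL2, JUN and DUSP4. Over all genes the widest promoter peak was wider in hypoxia at 60.7%. Past 1.5 times were EGR1, with 1490 bp in normoxia against 3054 bp in hypoxia, and JUND. The share of all genes past 1.5 times in width was not worked out, so these have no background beside them. The widest promoter peak of EGR1, which is not its TSS peak, measured 2515 bp in normoxia against 4457 bp in hypoxia.

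Summed over every annotated H3K4me3 peak, the 9 genes had 52.2 kb in normoxia from 17 peaks and 66.5 kb in hypoxia from 21, which is a ratio of 1.27. The whole lists stood in a ratio of 1.098. Coverage was larger in hypoxia at 6 of 9 genes, against 59.8% of all genes with a peak of the mark, and larger in normoxia at 3, against 40.2%. None of the 9 lacked H3K4me3 in either list, whereas 7.10% of genes with the mark had none in normoxia and 5.22% none in hypoxia. Coverage was at least 1.5 times larger in hypoxia at 4, namely FOS, JUND, ATF3 and EGR1, against 19.2% of genes with peaks in both lists, and at least 1.5 times larger in normoxia at none, against 10.0%. Of these 4, FOS fell short of 1.5 times within 3000 bp of the TSS, with 6496 bp in normoxia against 7011 bp in hypoxia. ATF3 fell short by position within 10 kb, with 5.34 kb against 7.75 kb. FOS had 7.11 kb in normoxia against 10.8 kb in hypoxia, ATF3 7.34 and 11.6 kb, and JUND 2.25 and 4.28 kb. The table places another start of ATF3 farther upstream, where a peak of 2002 bp in normoxia and of 3812 bp in hypoxia is shared with the neighbouring gene PACC1 and is counted in these sums.

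H3K27ac covered less length at these genes than H3K4me3, with 5.01 kb in normoxia and 13.3 kb in hypoxia against 52.2 and 66.5 kb. The whole lists differed in the same direction, with 11.0 and 36.9 Mb of H3K27ac against 38.6 and 42.4 Mb of H3K4me3. Within 3000 bp of the TSS, as the table annotates peaks, 1 of 9 genes had the mark in both conditions, 5 in hypoxia only, 2 in normoxia only and ATF3 in neither. Over the 9295 genes with an H3K27ac promoter peak, 46.9% had it in both, 47.0% in hypoxia only and 6.04% in normoxia only. Of the 8 immediate early genes with such a peak, the hypoxia-only number is near that background. The 1 gene in both is fewer, and the 2 in normoxia only are more, than those shares would give. These counts are small and the differences were not tested. Among the 9909 genes with H3K4me3 at the promoter in both lists, 41.7% had H3K27ac there in both conditions, 34.2% in hypoxia only, 4.49% in normoxia only and 19.7% in neither.

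**Figure D3:**
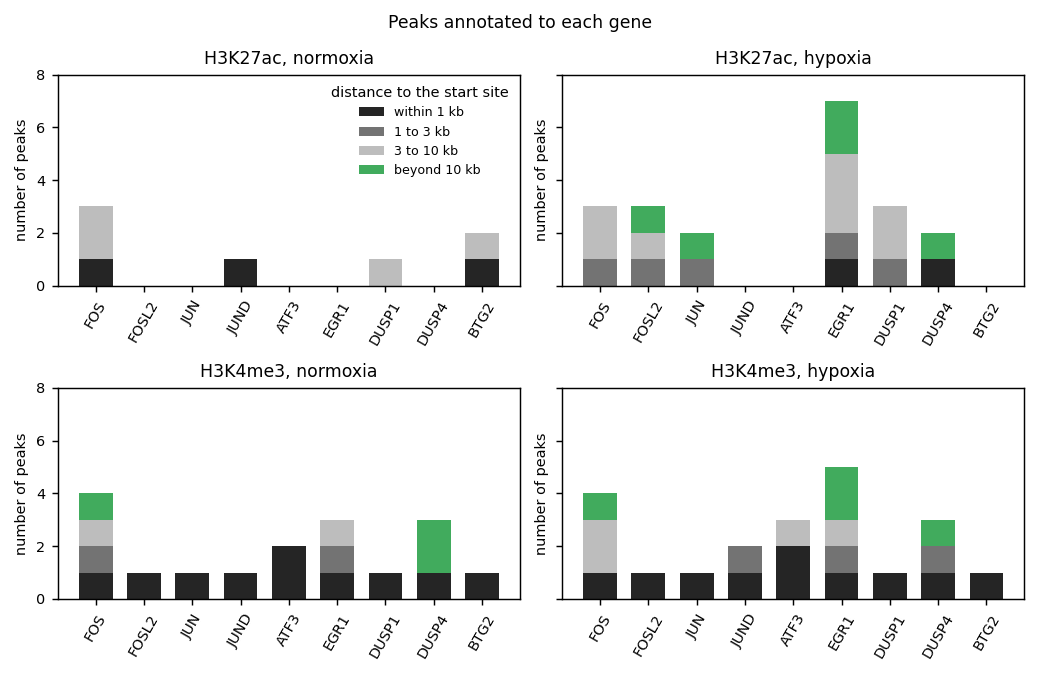
Number of peaks annotated to each gene in each of the 4 lists, stacked by distance to the TSS. EGR1 has 7 H3K27ac peaks in hypoxia and none in normoxia, and every gene has an H3K4me3 peak within 1 kb in both conditions.

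FOS was the gene with H3K27ac near the TSS in both lists, and its peaks there did not overlap. In normoxia a peak of 175 bp began 52 bp downstream of the TSS. In hypoxia a peak of 165 bp, the narrowest width in that list, lay upstream from -1299 to -1135 bp. Of all genes with an H3K27ac promoter peak in both lists, 75.4% had the wider one in hypoxia. The larger H3K27ac peak of FOS lay farther upstream, 945 bp wide in normoxia (chromosome 5, 38424761 to 38425705) and 1900 bp wide in hypoxia (38424081 to 38425980), and these overlapped. That upstream region overlapped H3K4me3 in hypoxia, where a peak of 3026 bp reached from -6256 to -3231 bp, and not in normoxia, where the H3K4me3 peak of 1438 bp began at -4200 bp. Over all its peaks, 3 in each list, FOS had 1.44 kb of H3K27ac in normoxia against 2.39 kb in hypoxia.

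FOSL2 had no H3K27ac peak in normoxia and 3 in hypoxia. A peak of 980 bp (chromosome 3, 27512385 to 27513364) lay across the upstream edge of the hypoxia H3K4me3 domain and a peak of 335 bp just inside its downstream edge. The remaining peak of 567 bp lay at -89296 bp in an intron of BRE.

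JUN was listed with H3K27ac in hypoxia only, and that call rests on the annotation. In hypoxia a peak of 906 bp (chromosome 8, 26716885 to 26717790) lay upstream, with its near edge at -1058 bp. In normoxia no H3K27ac peak was annotated to JUN, but peaks of 591 and 400 bp lay 617 and 3288 bp downstream of its TSS, under the same H3K4me3 domain, and the table gives both to the overlapping gene FGGY. With peaks of any annotation counted by position, JUN had H3K27ac within 3000 bp in both conditions, upstream in hypoxia and downstream in normoxia. Its H3K27ac within 10 kb was then 0.991 kb in normoxia and 0.906 kb in hypoxia, so the direction of the difference turned. This count was made after the data were seen, and among genes with a TSS that could be worked out 52.6% were in both lists by position, 42.7% in hypoxia only and 4.73% in normoxia only.

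JUND and BTG2 had H3K27ac in normoxia only. At JUND a peak of 512 bp lay at -695 bp, between the H3K4me3 peaks of the hypoxia list and outside the single H3K4me3 peak of the normoxia list. At BTG2 peaks of 685 bp (chromosome 26, 5123018 to 5123702) and 816 bp began 204 and 4362 bp downstream of the TSS, the former inside the normoxia H3K4me3 peak and the latter across its downstream edge. In hypoxia neither gene had an annotated H3K27ac peak. By position the nearest ones were given to neighbours, 778 bp wide and 8739 bp downstream of BTG2 (to FMOD) and 166 bp wide and at -8871 bp from JUND (to LSM4). Of all genes with an H3K27ac peak at any distance, 3.26% had none in hypoxia, against these 2 of the 8 genes, and 41.9% had none in normoxia, against 4 of the 8.

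ATF3 was the gene of the 9 with no H3K27ac peak annotated in either condition, and none of any annotation lay within 10 kb of the TSS worked out from the table. The other start of ATF3, farther upstream, was not searched for H3K27ac peaks given to other genes. At the TSS that was searched, the H3K4me3 peak of ATF3 was the widest of the 9 in hypoxia.

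EGR1 was at the other end, with 7 H3K27ac peaks in hypoxia and none in normoxia. Of the 5319 genes with H3K27ac peaks in hypoxia and none in normoxia, 3.16% had 7 or more. The peaks of EGR1 were spread from -4781 to 15861 bp around the TSS (chromosome 13, 18945167 to 18965809) and were 360 to 1163 bp wide. The peak over the TSS was the narrowest, from -253 to 106 bp. Of the 7 peaks, 5 overlapped an H3K4me3 peak of hypoxia, and the outermost on each side did not. Together they covered 4.46 kb, the most H3K27ac of the 9 genes. With only the widest hypoxia peaks, as many as the normoxia list holds, EGR1 had 1.16 kb, less than the 2.16 kb of DUSP4.

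DUSP1 and DUSP4 differed from each other. DUSP1 had an H3K27ac peak beyond the 3000 bp window in both conditions, 1561 bp wide in normoxia (chromosome 13, 9766555 to 9768115) and 818 bp wide in hypoxia (9767057 to 9767874), the narrower lying inside the wider. In hypoxia peaks of 392 and 167 bp lay between it and the TSS, so the hypoxia-only call of DUSP1 in the promoter window rests on a peak of 167 bp. Over all its peaks DUSP1 had 1.56 kb in normoxia against 1.38 kb in hypoxia. DUSP4 had none in normoxia and in hypoxia a peak of 1025 bp over its TSS (chromosome 4, 49367250 to 49368274). Its other H3K27ac peak, 1132 bp wide, lay 23913 bp downstream in intron 15 of TNKS and overlapped no H3K4me3 peak of hypoxia. H3K4me3 peaks given to DUSP4 lay farther off in intron 5 of TNKS, from 46426 bp onward in normoxia and from 48663 bp in hypoxia.

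**Figure D4:**
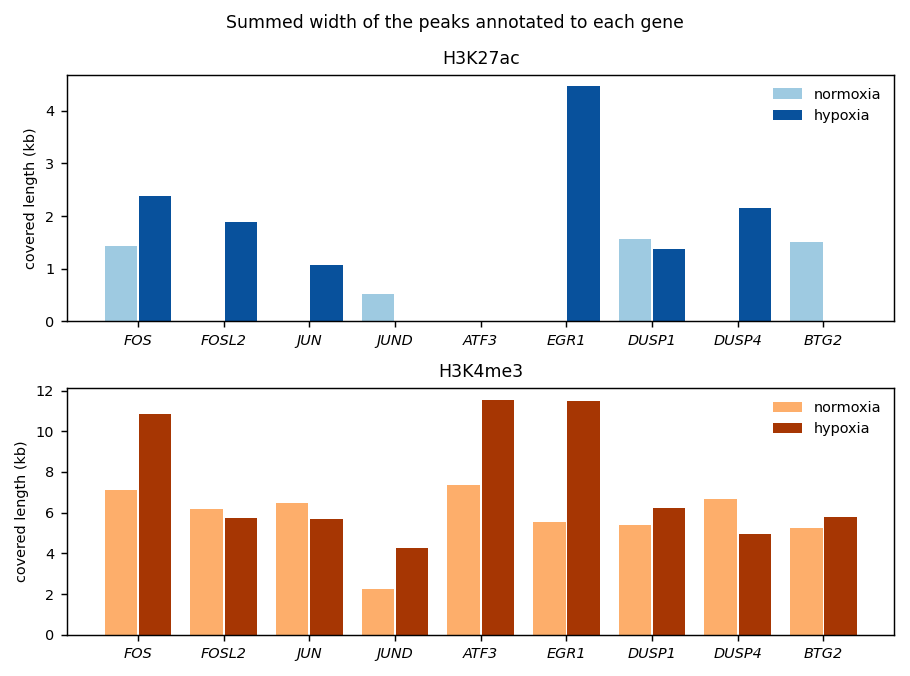
Summed width in kb of all peaks annotated to each gene, H3K27ac above and H3K4me3 below, in normoxia and hypoxia. H3K27ac bars of FOSL2, JUN, EGR1 and DUSP4 are present in hypoxia only and those of JUND and BTG2 in normoxia only, while both H3K4me3 bars are present at all 9 genes.

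Together the 9 genes had 5.01 kb of H3K27ac from 7 peaks in normoxia and 13.3 kb from 20 peaks in hypoxia, which is a ratio of 2.66. The whole lists stood in a ratio of 3.34. EGR1, with no peak in normoxia, gave 4.46 kb of the 13.3 kb. The median ratio over all genes with peaks in both lists was 2.89. Among the 9 genes only 2 had peaks in both lists, FOS (1.66) and DUSP1 (0.882), with a median ratio of 1.21. By gene, 5 of the 8 with any H3K27ac peak had more in hypoxia, against 91.1% of all such genes. The other 3, JUND, DUSP1 and BTG2, had more in normoxia, against 8.92%. With only the 15511 widest hypoxia peaks, as many as the normoxia list holds, the ratio over the 9 genes was 1.58. The ratio of the whole lists under this cut was not worked out, so 1.58 has no background beside it.

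Most H3K27ac peaks of these genes overlapped an H3K4me3 peak of the same condition, though in normoxia the share was near the background. An H3K27ac peak covered the TSS at 2 of the 6 genes with a promoter peak in hypoxia, EGR1 and DUSP4, against 39.4% of all genes with one. In normoxia it did so at none of 3, against 32.3%, and counts this small cannot show whether the genes differ from the background. H3K4me3 overlapped 15 of the 20 H3K27ac peaks in hypoxia and 4 of 7 in normoxia, compared with 35.6% and 50.3% of all H3K27ac peaks of those lists. Of the 20 hypoxia peaks, 7 lay within 3000 bp of a TSS, 8 between 3000 and 10000 bp and 5 beyond. Over all hypoxia H3K27ac peaks 17.3% lay within 1000 bp and 10.0% between 1000 and 3000 bp, 21.8% between 3000 and 10000 bp and 50.8% beyond. In normoxia the numbers of the 9 genes were 3, 4 and 0, where 26.6% and 10.6% of all peaks lay in the nearer classes, 20.4% between 3000 and 10000 bp and 42.3% beyond.

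Few of these H3K27ac peaks were at the same place in both conditions, which was usual for peaks of the hypoxia list. The normoxia share rests on 7 peaks. Of the 7 normoxia peaks 2 overlapped a hypoxia peak, compared with 60.7% of all normoxia H3K27ac peaks, and of the 20 hypoxia peaks 2 overlapped a normoxia peak, compared with 19.3%. The regions concerned were the one upstream of FOS and the one downstream of DUSP1, and neither lay within 3000 bp of the TSS. H3K4me3 peaks overlapped the other condition at 16 of 17 in normoxia and 15 of 21 in hypoxia, compared with 66.5% and 58.8% of all H3K4me3 peaks of those lists.

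A list of 54 other immediate early and early response genes, of which the table names 46, gives a wider view. H3K27ac was at the promoter in both lists at 14 of the 46 (30.4%) and in hypoxia only at 11 (23.9%). It was there in normoxia only at 3 (6.52%) and in neither list at 18 (39.1%). These shares were 41.7%, 34.2%, 4.49% and 19.7% over the 9909 genes with H3K4me3 promoter peaks in both lists, which 43 of the 46 had. The widest H3K27ac promoter peaks present in both belonged to NFKBIA, the inhibitor of NF-kappa B, with 1086 bp in normoxia and 5113 bp in hypoxia, to the stress gene GADD45A with 2914 and 4659 bp, and to BTG1, a relative of BTG2, with 868 and 4514 bp. Those in hypoxia only belonged to RHOB, a small GTPase (1728 bp), ID1, an inhibitor of bHLH factors (1560 bp), and ARID5B (1097 bp). The genes with a promoter peak in normoxia only were MCL1, an anti-apoptotic protein (1259 bp), the phosphatase gene DUSP5 (779 bp) and the kinase gene SGK1 (187 bp). Over all annotated peaks, DUSP5 had 0.779 kb of H3K27ac in normoxia against 2.15 kb in hypoxia, and SGK1 0.187 against 1.95 kb. MCL1 went the other way, with 3.06 kb in normoxia against 0.901 kb in hypoxia.

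FOSB, EGR2, EGR4, NR4A1 and NR4A2 had H3K4me3 at the promoter in both conditions and no H3K27ac promoter peak in either, while EGR3 and NR4A3 had one in hypoxia only, 475 and 442 bp wide. These genes were picked after their values were seen. H3K4me3 was in both lists at 43 of the 46 genes, and the other 3 had no H3K4me3 promoter peak in either. Of all genes with an H3K4me3 promoter peak, 91.4% had it in both lists. The number with a promoter peak of 5000 bp or more was 11 in normoxia and 11 in hypoxia, not all of them the same genes. Among all genes with an H3K4me3 promoter peak, 11.7% had one that wide in normoxia and 14.1% in hypoxia. H3K27ac peaks of the 46 genes summed to 46.7 kb in normoxia against 156.9 kb in hypoxia, which is a ratio of 3.36. The whole H3K27ac lists stood in a ratio of 3.34, so the 46 genes were near the background.

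Genes that carry signals to immediate early promoters, together with related transcription factors and a cofactor, were listed as 27, of which 24 are in the table. H3K27ac was in both lists at 12 of the 24 (50.0%), in hypoxia only at 8 (33.3%), in normoxia only at none and in neither at 4 (16.7%). These shares were 41.7%, 34.2%, 4.49% and 19.7% over the 9909 genes with H3K4me3 promoter peaks in both lists, which 22 of the 24 had. The widest in both belonged to ATF2, a partner of JUN (1225 bp in normoxia against 2177 bp in hypoxia), and the MAP kinase genes MAPK10 (410 and 1894 bp) and MAPK3 (1306 and 1776 bp). Those in hypoxia only belonged to MAFK (1503 bp), the kinase gene RPS6KA3 (1106 bp) and the JNK gene MAPK8 (906 bp). SRF, which encodes serum response factor, had a promoter peak of 163 bp in normoxia, and one of 580 bp in hypoxia.

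Genes with the most similar coverage over the 4 lists were sought for FOS, FOSL2 and DUSP4, which with EGR1 had the most H3K27ac in hypoxia, by the Euclidean distance between log2 covered lengths in kb plus 0.1, among genes with an H3K27ac promoter peak in as many lists. SACM1L, a lipid phosphatase gene, was nearest to FOS, with 1.49 and 2.41 kb of H3K27ac. EGLN1, a prolyl hydroxylase that senses oxygen, was nearest to both FOSL2 and DUSP4, with no H3K27ac in normoxia and 2.03 kb in hypoxia and with H3K4me3 of 6.49 and 5.50 kb. The likeness rests on 4 values per gene and is a description.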

How the data were processed

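The deposited table lists peaks of CUT&RUN in chick lens fiber cells, 1 list per mark and condition, with chromosome, start, end, nearest gene, transcript and distance to the TSS, per the file headers. Per the submitters' processing notes the build is galGal6 and the tools include MACS2, ChIPseeker, STAR and DESeq2, with no role given. The threshold, the control and the pooling of libraries are not given in the sources used here. The table has 124414 lines. Each interval was counted once per list, starts were read as 0-based and printed 1-based, and members were taken by symbol with Python 3.11.15 and pandas 2.3.3.

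An overlap of 1 bp made peaks shared. A promoter counted as in both lists with a promoter peak in each, or with one that overlapped a peak of any annotation in the other. Covered length is the summed width of peaks. It moves with how much was called, and width stands in for the extent of the mark, not for its strength. Peaks annotated to more than 1 gene count for each. The TSS of a transcript was worked out where the distances of its peaks fitted 1 position on 1 strand, which gave 11671 of 14100 genes. State and overlap rules were tested on simulated data.

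The members and gene lists were chosen with earlier results of these data known. Named genes of the wider lists are the 3 with the widest H3K27ac promoter peak in each state; FOSB, EGR2, EGR4, NR4A1, EGR3, NR4A2, NR4A3 and SRF were named after their values were seen. No genome or promoter sequence was used, so none is shown and the promoter motif search that was planned was not run. The gene most like EGR1 in coverage is not reported here.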

Additional observations from a re-analysis of the deposited data

How the results depend on the processing

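The number of the 9 genes in each H3K4me3 promoter state and their summed H3K4me3 ratio stayed within 1.5 times under every alternative run. The H3K27ac calls rested on few peaks, some of them narrow. H3K4me3 differences of single genes moved: within 3000 bp of the TSS FOS went from 3.73 to 0.515 kb, EGR1 from 5.94 to 3.51 kb and DUSP4 from -1.73 to -0.118 kb, and by position ATF3 went from 4.21 to 2.40 kb, JUND from 2.04 to 4.36 kb and BTG2 from 0.566 to 0.885 kb. The 1 gene in both H3K27ac lists became 0 with a promoter window of 1000 bp, with only peaks of 500 bp or more and with the hypoxia list cut down to as many of its widest peaks as the normoxia list holds. It was also 0 where sharing by an overlap of at least 50% was required, since the FOS promoter peaks do not overlap at all. It became 2 over all annotated peaks, through DUSP1, and 2 by position, through JUN. The 5 genes in hypoxia only became 2 with the 1000 bp window, and 3 with peaks of 500 bp or more or with the reduced list. The 2 genes in normoxia only became 3 with the 1000 bp window and with the reduced list, through FOS. The genes in neither list, 1 before, became 4 with the 1000 bp window, 4 with peaks of 500 bp or more and 3 with the reduced list. EGR1 and DUSP1 were among them with peaks of 500 bp or more and with the reduced list. JUND and BTG2 were in normoxia only and ATF3 in neither under each of these 6 settings, of which the one by position was chosen after seeing the data. H3K27ac peaks of these genes in hypoxia numbered 11 with only those of 500 bp or more. The covered H3K27ac ratio, 2.66 before, was 1.58 with the reduced list. Under the other settings it lay from 1.79, by position within 10 kb, to 2.99, within 3000 bp of the TSS. By gene, covered H3K27ac in hypoxia minus normoxia changed sign within 3000 bp of the TSS, to -0.010 kb at FOS and 0.167 kb at DUSP1, and by position within 10 kb, to -0.085 kb at JUN. The EGR1 difference went from 4.46 to 1.16 kb with the reduced list. The cause of these changes was not tested, apart from the peaks each rule leaves out. No paired analysis was possible because the table holds no value per library, and for the same reason no replicate could be left out.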
